A study of Mus musculus with 2 samples.

Results

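The proteasome genes of AML12, a mouse hepatocyte line that is not transformed, were compared between untreated control cells and cells made senescent with hydrogen peroxide. Members were the protein-coding GENCODE M21 genes whose symbol holds Psm, a letter from a to g and a digit. Of 50 such genes, 48 had at least 10 reads over both libraries and were analysed, among 14383 genes that passed the same filter in a table of 35275. The 2 others were the germ cell subunit Psma8, with 0 control reads and 1 senescent read, and the thymic subunit Psmb11, with 0 reads in both libraries. Of the 48, Psmc3ip matched by its symbol but encodes a meiotic recombination factor, so 47 members belong to the proteasome by function.

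The proteasome is the protease that degrades ubiquitin-tagged proteins. Its 20S core is a barrel of outer alpha rings and inner beta rings that carry the active sites, and its 19S cap binds, deubiquitinates and unfolds substrates with a ring of ATPases. In cells exposed to interferon-gamma, Psmb8, Psmb9 and Psmb10 replace Psmb5, Psmb6 and Psmb7 to form the immunoproteasome, which favours peptides suited to MHC class I presentation, and PA28, built of Psme1 and Psme2, can take the place of the cap.

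The line was derived from the liver of a mouse transgenic for human TGF-alpha, and the labels give CD-1 strain, male, 3 months, liver for both groups. The senescent group, titled Old, received 1 mM peroxide on the first day and 0.75 mM on the following days, for 1 h a day over 6 days, with 23 h of recovery in complete medium after each exposure. The control group, titled Young, received no peroxide, and both groups were grown in medium with dexamethasone. Each condition is 1 library made from RNA of 3 pooled samples of a single cell line, so there is no replicate error, no test was possible, and each ratio compares 2 libraries rather than 2 conditions.

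Counted reads numbered 28021941 over 17403 genes in control cells and 25738075 over 17592 in senescent cells. Values are log2 ratios of senescent over control reads after TMM scaling with a prior count of 1, with a 95% Clopper-Pearson interval in brackets. With 1 library per condition, intervals cover counting error only. The reads carry no molecular identifiers, so copies of a molecule may be counted more than once and the intervals can be too narrow. Calls of higher or lower required a log2 ratio past 0.5 (1.41-fold) and an interval that left out 0. The study's own threshold of 1.5 (2.83-fold) was used beside it with the same rule on the interval. The study also required a p-value, which was not used here. Scaling by total counts in place of TMM lowers the median of all genes by 0.11. Hepatocyte markers changed between the libraries, with 2 of 9 called higher and 4 lower, beside 14.8% and 20.4% of all genes tested. Albumin (Alb) went from 32076 to 2917 reads while the hepatocyte factor Hnf4a was at 8187 and 7705. The 2 called higher were Krt8, from 119403 to 144783 reads (0.51), and Krt18, from 40512 to 60941 (0.82). Markers of other cells were near 0 in both libraries, with summed levels of 2.27 and 4.84 TMM-scaled CPM over 5 leukocyte genes, 0.928 and 0.161 over 5 fibroblast and stellate genes, and 0.138 and 0.403 over 3 endothelial genes. The defining markers Adgre1, Col1a2 and Col3a1 were at 0 reads in both libraries, while the leukocyte marker Ptprc was called higher with 27 control and 76 senescent reads (1.68 [1.07, 2.41]) and the collagen Col1a1 lower with 21 and 1 (-3.29 [-9.53, -1.53]). The part of these changed markers in the results was not tested. In RNA from whole cultures, fewer cells of a type and less RNA per cell cannot be told apart.

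Among the 48 members, 9 were called lower, which is 18.8% beside 20.4% of all genes tested, and 0 were called higher beside 14.8% of all genes tested. At the threshold of 1.5, the 3 immunoproteasome subunits were lower, 6.25% of the members beside 5.6% of all genes tested, and 0 members were higher beside 2.71%. The share called lower was thus close to that of all genes at both thresholds. The 9 lower genes were Psmb8, Psmb9 and Psmb10 of the immunoproteasome, Psme1, Psme2 and Psme2b of the PA28 activator, and the assembly chaperones Psmg1, Psmg4 and Psmd10. None of them is a constitutive subunit of the 20S core or of the 19S cap. The median log2 ratio was 0.01 over the 48 members and -0.02 over all genes tested. Together the members made up 0.687% of reads in control and 0.639% in senescent cells. The counting intervals lay above 0 for 21 members, below 0 for 20 and held 0 for 7. Of all 14383 genes tested, 4888 lay above 0, 4977 below and 4518 held 0. Intervals narrow with depth, and most members have at least 1000 reads. Of the 7804 genes with that many, 3786 lay above 0, 2666 below and 1352 held 0. Psma3, Psma7, Psmc4, Psmg3 and Psmd9, with log2 ratios from 0.01 to 0.10, take a negative sign under total-count scaling, Psma7 and Psmc4 also under upper-quartile scaling.

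**Figure D1:**
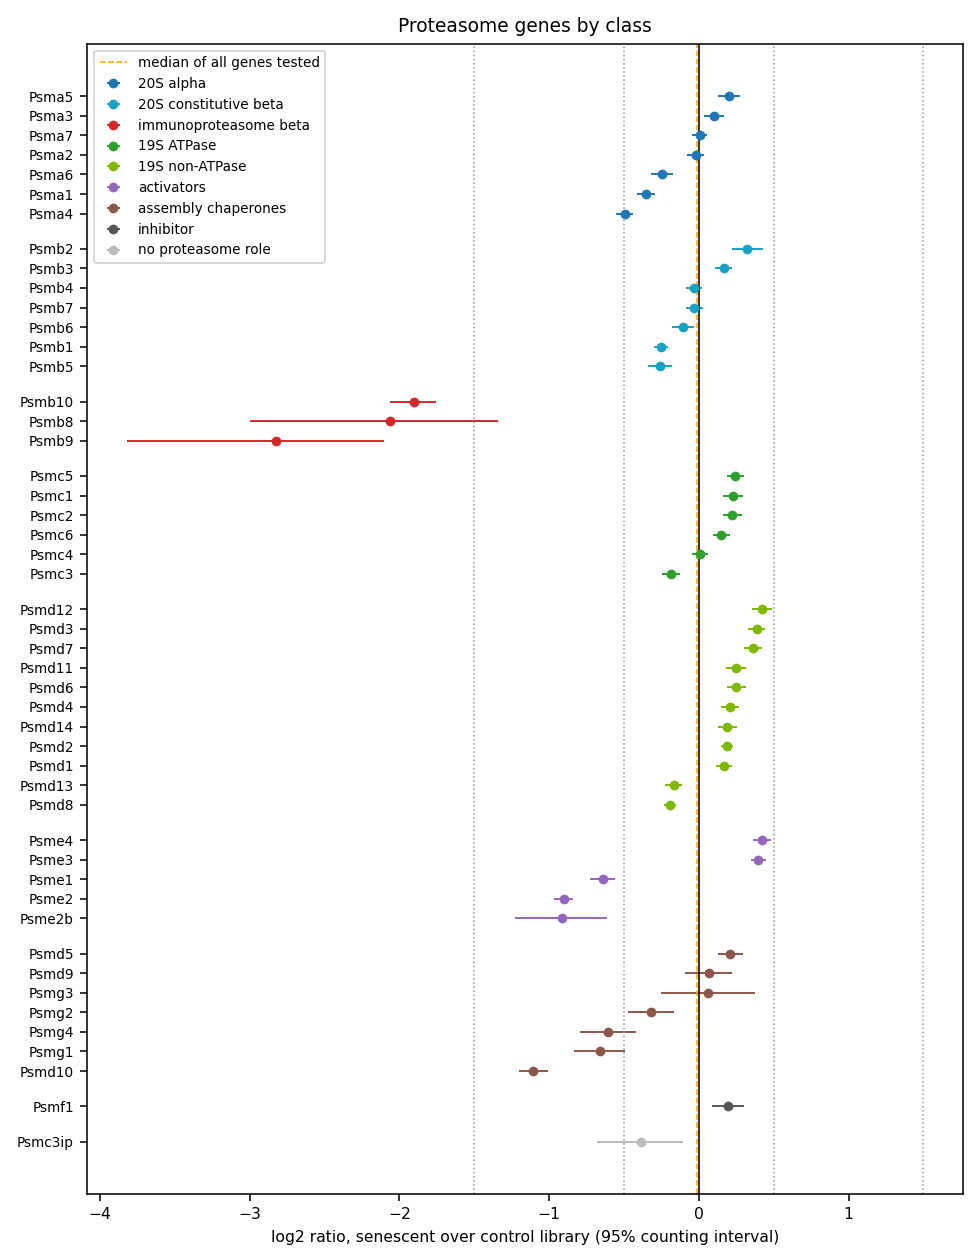
Log2 ratio of senescent over control reads (x axis) for the 48 members (y axis), grouped by class and coloured as in the key, with lines for the 95% counting interval. Dotted lines mark log2 ratios of 0.5 and 1.5 in both directions and the dashed line the median of all genes tested, -0.02. The 3 immunoproteasome genes lie between -2.83 and -1.90, while the 31 core and cap genes lie between -0.50 and 0.42.

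Immunoproteasome subunits had the lowest ratios of all members. Psmb8 (LMP7, chr17:34197721-34201454, forward strand), which takes the chymotrypsin-like site, was counted 82 times in control and 16 times in senescent cells (log2 ratio -2.07 [-3.00, -1.34]). Psmb9 (LMP2, chr17:34181987-34187764, reverse strand), which replaces the caspase-like subunit, had 123 and 14 reads, a log2 ratio of -2.83 [-3.82, -2.10]. Psmb10 (MECL-1, chr8:105935735-105938444, reverse strand), which replaces the trypsin-like subunit, had 1881 and 428 reads, a log2 ratio of -1.90 [-2.06, -1.75]. The intervals of all 3 lay past 1 in the lower direction, and those of Psmb8 and Psmb9 are wide because they rest on few reads. As a group they made up 0.00744% of reads in control and 0.00178% in senescent cells.

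The constitutive subunits that these genes replace had log2 ratios of much smaller size. Psmb5, the chymotrypsin-like subunit, was counted 3184 times in control and 2268 times in senescent cells (log2 ratio -0.26 [-0.34, -0.18]). Psmb6, the caspase-like subunit, had 3554 and 2819 reads (-0.10 [-0.18, -0.03]). Psmb7, the trypsin-like subunit, had 5465 and 4563 reads (-0.03 [-0.09, 0.03]). None of them passed 0.5. The difference of log2 ratios within a pair does not depend on library scaling apart from the prior count, and it was -1.81 [-2.64, -1.09] for Psmb8 minus Psmb5, -2.72 [-3.60, -2.00] for Psmb9 minus Psmb6 and -1.87 [-2.04, -1.71] for Psmb10 minus Psmb7. In each pair the immunoproteasome gene was therefore lower relative to its counterpart in the senescent library, with a counting interval that left out 0.

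The balance of each pair was read from levels in RPKM, which divides reads by exon length and by the TMM-scaled depth of the library. Psmb10 stood at 37.9 in control and 10.1 in senescent cells beside Psmb7 at 54.9 and 53.8, so that Psmb10 made up 40.8% (39.6 to 42.1) of the level of the pair in control and 15.8% (14.5 to 17.2) in senescent cells. Psmb9 made up 1.74% (1.45 to 2.08) of its pair with Psmb6 in control and 0.253% (0.138 to 0.425) in senescent cells. Psmb8 made up 0.680% (0.540 to 0.845) of its pair with Psmb5 in control and 0.187% (0.107 to 0.304) in senescent cells. Already in control cells, Psmb10 RNA was thus of the same order as that of its constitutive counterpart, while Psmb8 and Psmb9 were scarce. These shares use the summed exon length of a gene. With the longest transcript the Psmb8 shares are 1.20% and 0.331%, the Psmb9 shares 1.15% and 0.166% and the Psmb10 shares 42.8% and 16.9%, so the order of Psmb8 and Psmb9 depends on the length used. The counting tool and its use of strand are not given in the sources used here, and Psmb9 shares 212 exon bases with Tap1, Psmb8 498 with the antisense gene Gm20496 (11 and 0 reads) and Psmb7 405 with Nek6 (2411 and 2366 reads), each on the opposite strand.

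**Figure D2:**
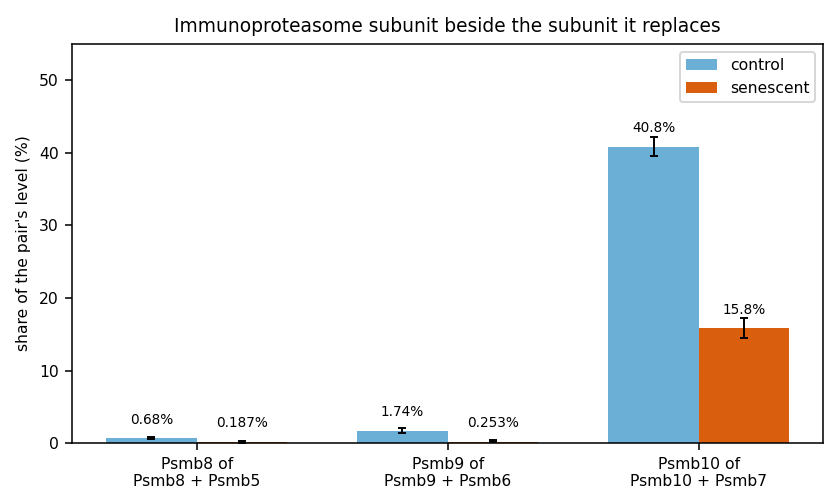
Share of each pair's level, in percent of reads per kilobase of exon (y axis), that belongs to the immunoproteasome subunit in the control and the senescent library, with bars starting at 0 and lines for the 95% exact binomial interval. Psmb10 goes from 40.8% to 15.8%, while Psmb8 and Psmb9 stay under 2.08% in both libraries, interval included.

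The immunoproteasome genes are known to be induced through interferon-responsive elements, so the promoters of members were searched for such letters, and stretches from some genes that were called lower (Psmb8, Psmb10, Psme2 and Psmd10) are shown beside those of Psmb5 and Psme3, which were not called. The 250 bases before each RefSeq transcription start (GRCm38.p6) were searched on both strands, and 41 of the 48 members had an entry, with 44 promoters in all. Capitals mark matches to the interferon-stimulated response element (GAAA, 2 bases of any kind and GAAA), the gamma-activated site (TTCNNNGAA), the antioxidant response element (TGACNNNGC), the CCAAT box (CCAAT) or the NF-kB motif, and no matches in the stretches shown share bases. Each stretch runs 5′ to 3′ on the strand of the gene and, apart from the Psmb8 site, leaves out annotated exons.
Psmb8, forward strand, chr17:34198088-34198116: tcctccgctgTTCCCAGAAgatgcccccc
Psmb10, reverse strand, chr8:105938445-105938642: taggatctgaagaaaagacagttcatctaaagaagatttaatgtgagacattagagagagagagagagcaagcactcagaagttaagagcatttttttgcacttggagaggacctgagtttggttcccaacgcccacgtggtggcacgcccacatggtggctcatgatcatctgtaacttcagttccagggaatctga
Psmb5, reverse strand, chr14:54618023-54618245: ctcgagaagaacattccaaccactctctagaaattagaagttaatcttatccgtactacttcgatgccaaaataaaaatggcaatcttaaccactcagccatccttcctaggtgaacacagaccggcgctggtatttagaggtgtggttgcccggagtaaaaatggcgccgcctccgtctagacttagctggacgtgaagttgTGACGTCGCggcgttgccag
Psme2, reverse strand, chr14:55591114-55591351: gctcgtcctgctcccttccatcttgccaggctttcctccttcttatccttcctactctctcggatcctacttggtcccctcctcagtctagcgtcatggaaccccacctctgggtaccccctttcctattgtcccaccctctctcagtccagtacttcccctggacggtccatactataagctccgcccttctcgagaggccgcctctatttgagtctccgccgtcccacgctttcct
Psme3, forward strand, chr11:101315963-101316212: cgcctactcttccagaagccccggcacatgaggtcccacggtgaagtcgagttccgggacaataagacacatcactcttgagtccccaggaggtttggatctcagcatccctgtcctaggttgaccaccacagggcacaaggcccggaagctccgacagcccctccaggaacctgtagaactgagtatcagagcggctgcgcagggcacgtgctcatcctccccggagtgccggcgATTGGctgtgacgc
Psmd10, reverse strand, chrX:140956729-140956906: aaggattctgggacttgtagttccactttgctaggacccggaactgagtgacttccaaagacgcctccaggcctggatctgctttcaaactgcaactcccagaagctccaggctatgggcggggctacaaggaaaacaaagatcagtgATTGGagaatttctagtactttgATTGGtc

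Among the 3 immunoproteasome genes, Psmb8 held a gamma-activated site, shown with 10 bases on each side and lying in an annotated exon of another start, and 0 held an interferon-stimulated response element in these windows. The gamma-activated site was found in 2 of 44 member promoters (Psmb8 and Psmg1), 4.55% beside 7.02% of all 32851 promoters in the table. The interferon-stimulated response element was found in 3 (Psmb3, Psmd4 and Psmd9), 6.82% beside 2.98%. The antioxidant response element, to which NRF1 and NRF2 bind, was found in 5 (Psmb5, Psmb6, Psmc6, Psmd12 and Psmd9), 11.4% beside 10.2%. The CCAAT box was found in 14, 31.8% beside 33.8%. The NF-kB motif was found in Psmd12 alone, 2.27% beside 3.90%. A GC box (GGGCGG, not capitalised above) was found in 23, 52.3% beside 32.7%. The 32851 promoters come from 27025 genes, more than the 14383 tested here, and were not matched to the members in level or GC content. A match gives only the presence of these letters, and a missing match says only that they are not in the window searched.

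The 20S core did not shift as a block. Its 14 constitutive subunits had a median log2 ratio of -0.03, with 4 intervals above 0, 6 below and 4 holding 0, and together they went from 0.244% of reads in control to 0.212% in senescent cells. None was called, and the nearest to the threshold was the alpha subunit Psma4, at 6400 and 3869 reads with a log2 ratio of -0.496. It passes 0.5 under each of the 3 other scalings, with a log2 ratio of -0.54 under upper-quartile scaling. Of the 7804 genes with at least 1000 reads, 3786 had intervals above 0, 2666 below and 1352 holding 0.

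Among the 7 alpha subunits, which form the outer rings and the gate of the barrel, log2 ratios ran from -0.50 for Psma4 to 0.20 for Psma5 with a median of -0.02. Psma1 was counted 5437 times in control and 3633 times in senescent cells (log2 ratio -0.35 [-0.41, -0.29]), and Psma6 had 3606 and 2592 reads, a log2 ratio of -0.25 [-0.32, -0.17]. Psma5 lay on the other side of 0 with 3172 and 3111 reads, a log2 ratio of 0.20 [0.13, 0.27]. Psma3 stood at 0.10, Psma7 at 0.01 and Psma2 at -0.02. The 7 constitutive beta subunits had a median of -0.03. Psmb2 was the highest of the core with 1521 and 1625 reads, a log2 ratio of 0.32 [0.22, 0.43]. Psmb5 was the lowest of the beta subunits at -0.26. Psmb3 stood at 0.16, Psmb4 at -0.03 and Psmb1 at -0.25. Subunits that sit in equal numbers in the same ring thus had log2 ratios whose counting intervals did not overlap, as for Psma4 and Psma5 or Psmb5 and Psmb2, although none was itself past 0.5.

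The 19S cap lay slightly higher. Its 17 subunits had a median log2 ratio of 0.21, with 13 intervals above 0, 3 below and 1 holding 0, and made up 0.329% of reads in control and 0.334% in senescent cells. None was called higher or lower. Beside these counts, 3786 of the 7804 genes with at least 1000 reads had intervals above 0 and 2666 below.

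The 6 ATPases, which unfold substrates and feed them into the barrel, had a median of 0.19. Psmc5 was the highest at 5034 and 5079 reads (0.24 [0.19, 0.30]). Psmc1 stood at 0.23, Psmc2 at 0.22, Psmc6 at 0.15 and Psmc4 at 0.01. Psmc3 was the only ATPase with an interval below 0, at -0.18 [-0.25, -0.12], with 5085 and 3816 reads. The 11 non-ATPase subunits of the base and lid had a median of 0.21. Psmd12, a lid subunit, was the highest of all core and cap genes with 3587 and 4099 reads, a log2 ratio of 0.42 [0.36, 0.49]. Psmd3 followed with 5012 and 5586 reads (0.39 [0.33, 0.44]) and Psmd7 with 4406 and 4830 reads (0.36 [0.30, 0.42]). The ubiquitin receptor Psmd4 stood at 0.21 and the deubiquitinase Psmd14, which removes ubiquitin chains at the cap, at 0.19. Psmd1 and Psmd2, the large scaffold subunits of the base, stood at 0.17 and 0.19, and Psmd6 and Psmd11 both at 0.25. Psmd8, with 12667 and 9463 reads, and Psmd13, with 5943 and 4508, were the 2 non-ATPase subunits below 0, at -0.19 and -0.17.

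The difference of the medians, 19S minus 20S, was 0.24. Library scaling shifts both classes alike, so apart from the prior count it cannot change this difference. When the 31 genes were put in order of log2 ratio, the lower 15 held 11 core genes and the upper 16 held 13 cap genes. Of the 17 cap genes 14 lay above the core median, 3 lay above the highest core gene, and 5 core genes lay below the lowest cap gene, so the ranges overlapped widely. All 31 were well covered, and the 7804 genes with at least 1000 reads had a median of 0.08. Core genes have a median exon length of 2335 bases and cap genes of 2820, and genes with at least 1000 reads in the same length ranges had medians of 0.02 and 0.07. With the trend of the log2 ratio on exon length subtracted the class medians were 0.00 and 0.21, and with the trend on GC content subtracted -0.01 and 0.23. Over the 31 genes the Spearman correlation of the log2 ratio was 0.07 with exon length, -0.06 with GC content and -0.49 with the control level, as descriptions of points that share both libraries, and the control level is itself part of the ratio. If each library carried a coefficient of variation of 0.1, an assumed value that alone gives an interval of 0.40 on each side and was combined with the counting interval in quadrature, 2 of the 31 (Psma4 and Psmd12) and 12 of all 48 members would leave out 0.

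**Figure D3:**
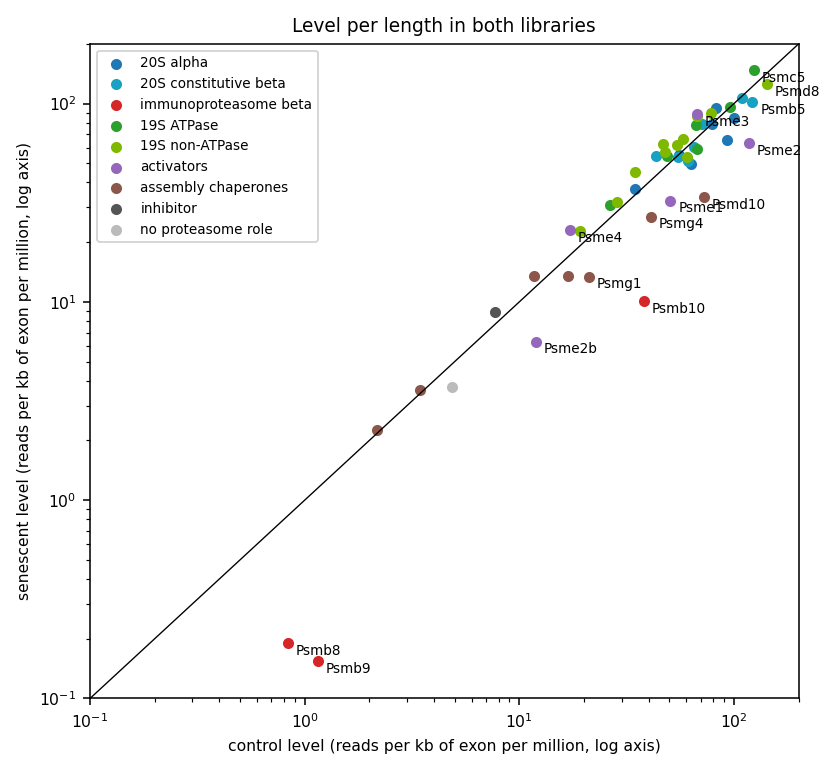
Level of each member in the control (x axis) and the senescent library (y axis), in RPKM (reads by exon length and TMM-scaled depth) on log axes, coloured by class, with a line of equal levels. Most core and cap genes lie near the line between 19.2 and 147, while Psmb8, Psmb9 and Psmb10 lie well below it.

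Levels of the core and the cap were compared on the scale by summed exon length. In control cells the median level was 68.0 RPKM over the 14 core genes and 57.7 over the 17 cap genes, and in senescent cells 63.3 and 61.6. The highest member in control was Psmd8 at 142, followed by Psmc5 at 124, Psmb5 at 122 and Psme2 at 118. In senescent cells Psmc5 was the highest at 147, followed by Psmd8 at 125, Psmb4 at 107 and Psmb5 at 102. Psmd11 was the lowest of core and cap in both, at 19.2 and 22.8. These orders depend on the length used. With the longest transcript the highest in control were Psmd8 at 220, Psme2 at 216 and Psma4 at 189. In senescent cells they were Psmd8 at 192, Psmb4 at 176, Psma7 at 160 and Psmc5 at 147. The core and cap medians were not computed with that length, so how they compare is given for the summed exon length only.

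The activators split by type. Psme1 and Psme2, the alpha and beta subunits of the PA28 ring that is induced with the immunoproteasome, were both called lower. Psme1 (chr14:55578123-55581529, forward strand) was counted 3248 times in control and 1773 times in senescent cells (log2 ratio -0.64 [-0.73, -0.56]). Psme2 (chr14:55587441-55591113, reverse strand) had 6040 and 2755 reads, a log2 ratio of -0.90 [-0.97, -0.84]. Psme2b had 290 and 131 reads, a log2 ratio of -0.91 [-1.23, -0.61], but its transcript matches that of Psme2 at 99.4% of 794 aligned bases, so reads of the pair may have been split and its value is uncertain. Psme3, the nuclear PA28-gamma that works without interferon, had 5754 and 6461 reads, a log2 ratio of 0.40 [0.35, 0.45]. Psme4, the large activator PA200, had 4193 and 4788 reads, a log2 ratio of 0.42 [0.36, 0.48]. Neither passed 0.5, but both lay above 0 where Psme1 and Psme2 lay below, and the difference was -1.04 [-1.14, -0.94] for Psme1 minus Psme3 and -1.30 [-1.38, -1.22] for Psme2 minus Psme3. The class median of -0.64 rests on Psme2b, and without it, a choice made after seeing the data, the median of the other 4 is -0.12. The proteasome inhibitor Psmf1 (PI31) had 1450 and 1417 reads, a log2 ratio of 0.20 [0.09, 0.30].

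The assembly chaperones ran from -1.11 to 0.21. Psmd10 (gankyrin, chrX:140948429-140956728, reverse strand), a chaperone of the 19S base that is also known as a liver oncoprotein, was counted 3098 times in control and 1227 times in senescent cells (log2 ratio -1.11 [-1.20, -1.01]), and was the lowest member outside the immunoproteasome. The other chaperones of the base among the members stood near or above 0, with Psmd5 at 0.21 [0.13, 0.29] and Psmd9 at 0.07 [-0.09, 0.22]. Of the 20S chaperones, Psmg1 had 828 and 446 reads, a log2 ratio of -0.66 [-0.83, -0.50]. Its dimer partner Psmg2 had 855 and 585 reads, a log2 ratio of -0.32 [-0.47, -0.16] that did not pass 0.5. In the dimer of Psmg3 and Psmg4, Psmg4 had 661 and 370 reads, a log2 ratio of -0.61 [-0.80, -0.42], while Psmg3 had 183 and 163 reads, a log2 ratio of 0.06 [-0.25, 0.38]. In both dimers 1 partner was called and the other was not, and the difference between partners was not tested. Psmc3ip, which is no proteasome gene, had 258 and 168 reads, a log2 ratio of -0.39 [-0.68, -0.10].

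**Figure D4:**
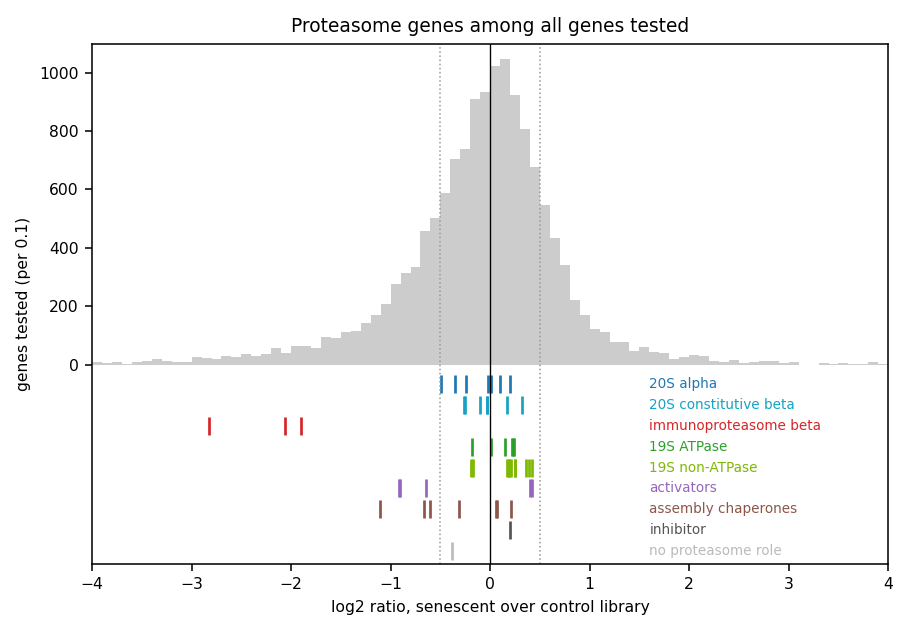
Distribution of the log2 ratio over all 14383 genes tested (grey, genes per interval of 0.1), with a mark for each member below it, 1 line per class. The x axis ends at 4 in both directions, which leaves out 58 genes, and dotted lines mark 0.5 in both directions. Core and cap genes lie in the central part of the distribution and the immunoproteasome genes in its lower tail.

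Genes that work with the proteasome but carry other symbols were taken from lists of general knowledge. Their counts stand beside 14.8% called higher and 20.4% called lower among all genes tested. Of 9 tested partners of the complex, 3 were called higher and 0 lower. They were Usp14, a deubiquitinase of the cap, with 2812 control and 4302 senescent reads (0.84 [0.77, 0.91]), Ube3c, a cap-bound ubiquitin ligase, with 2770 and 3737 (0.66 [0.59, 0.73]), and Adrm1, a ubiquitin receptor of the cap, with 3505 and 4331 (0.53 [0.47, 0.60]). The small cap subunit Sem1 stood at -0.32, and Pomp, the maturation factor of the core, at 0.08. Of 11 factors that shuttle or unfold substrates, 4 were called higher and 1 lower. Zfand2a, a stress-induced proteasome-binding protein, went from 899 to 3092 reads (2.01 [1.90, 2.12]), Ddi2, the protease that activates NRF1, stood at 0.74, Ubqln4 at 0.61 and Nploc4 at 0.59. Ubqln2, a shuttle factor of the same family as Ubqln4, went the other way, from 3693 to 1382 reads (-1.19 [-1.28, -1.10]). The unfoldase Vcp stood at 0.26.

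Of 6 genes that control proteasome transcription, 2 were called higher and 0 lower, beside 14.8% and 20.4% of all genes tested. Nfe2l1, which encodes NRF1, the activator of proteasome genes when proteasome activity falls short, was counted 7160 times in control and 9012 times in senescent cells (log2 ratio 0.56 [0.52, 0.61]). Of the Maf genes in the list, which encode dimer partners of NRF1, Mafk stood at 1.07, Mafg at 0.16 and Maff at 0.10. Nfe2l2, which encodes NRF2, had 5407 and 3940 reads, a log2 ratio of -0.23 [-0.29, -0.17], and Ngly1, which deglycosylates NRF1, stood at -0.33. The ubiquitin genes Ubb and Rps27a stood at -0.17 and -0.13, short of the threshold, and of the 2 ubiquitin-activating enzymes Uba6 was called higher at 0.60, while Uba1, the main one, stood at 0.32. The medians of these lists were 0.35 for the partners, 0.37 for the shuttle and unfolding factors and 0.13 for the transcriptional regulators. Beside them, the median was -0.02 over all genes tested and 0.08 over those with at least 1000 reads.

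Of 9 genes of interferon signalling and antigen processing, the setting in which the immunoproteasome works, 5 were called lower and 1 higher. Among all genes tested, 20.4% were called lower and 14.8% higher. The median of the 9 genes was -1.25. Tap2, a subunit of the peptide transporter, went from 327 control to 73 senescent reads (-1.92 [-2.32, -1.56]), whereas its partner Tap1 had 161 and 137 reads (-0.00 [-0.34, 0.33]). Irf1, an interferon-induced activator of immunoproteasome genes, went from 2853 to 984 reads (-1.31 [-1.41, -1.20]). The MHC class I heavy chain H2-K1 stood at -1.44, the peptide-loading factor Tapbp at -1.41 and the peptide-trimming enzyme Erap1 at -1.25. H2-D1 stood at -0.45 and the light chain B2m at -0.19, both short of the threshold. Nlrc5, an activator of MHC class I genes, was the higher gene with 21 and 41 reads (1.15 [0.40, 2.03]).

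**Figure D5:**
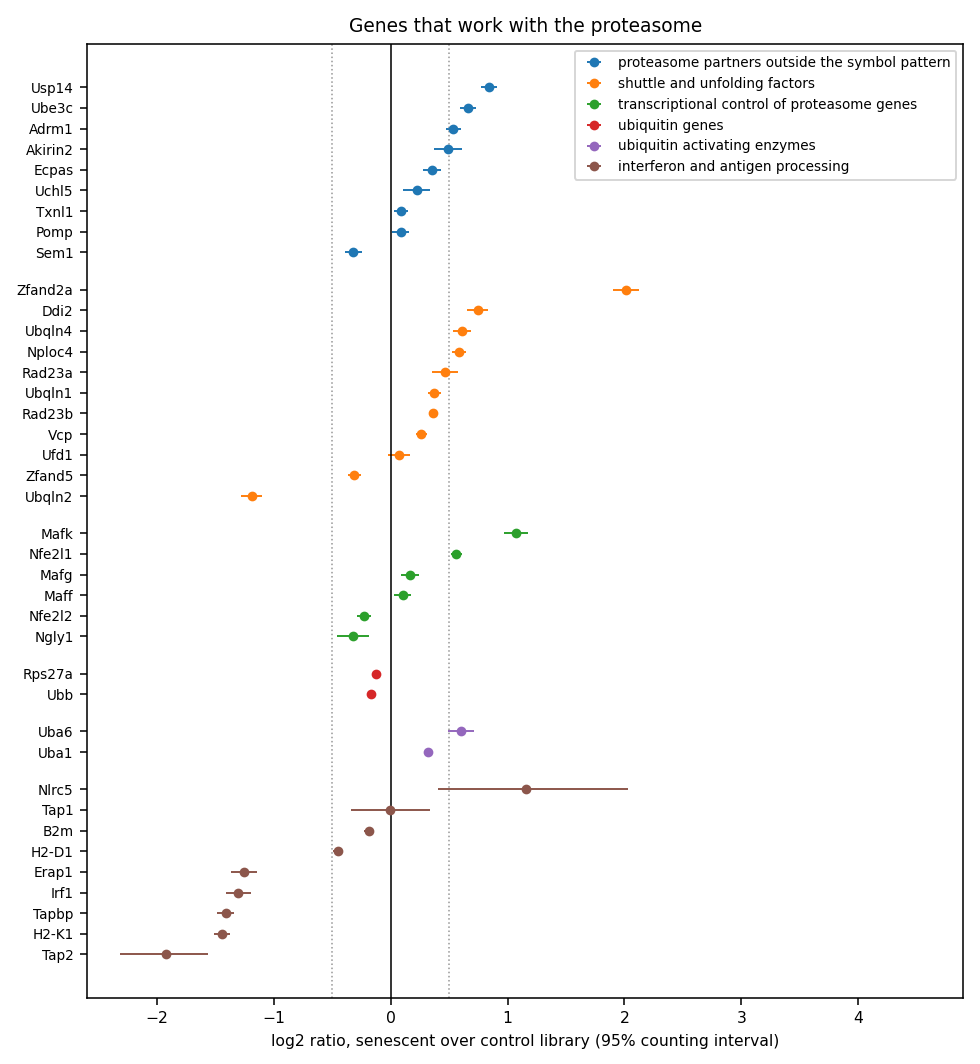
Log2 ratio of senescent over control reads (x axis), with 95% counting intervals, for the tested genes (y axis) of 6 lists around the proteasome, coloured by list. Dotted lines mark 0.5 in both directions. Zfand2a is highest at 2.01, and 5 of the 9 interferon and antigen processing genes lie below -0.5. Of all genes tested, 20.4% were called lower.

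Psmb8 and Psmb9 lie with Tap1 and Tap2 in the MHC class II region of chromosome 17, and genes within 100 kb of them did not share a direction. Psmb9, Psmb8 and Tap2 were lower while Tap1, which lies between Psmb9 and Psmb8, stood at -0.00. Brd2 was counted 7650 times in control and 8703 times in senescent cells (log2 ratio 0.42). H2-DMa had 58 and 120 reads, a log2 ratio of 1.26 [0.81, 1.76], and H2-DMb1 from 20 to 31 reads, a log2 ratio of 0.83 [0.00, 1.75]. The MHC class II genes H2-Oa, H2-DMb2, H2-Ob and H2-Aa were at 0 reads in both libraries.

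Copies of a member elsewhere in the genome can draw reads from it. For 10 members a transcript of another gene matched at least 250 bases at 95% identity or more, with 17 such copies of which 14 are pseudogenes. Over both libraries, copies with counts held more than 5% of a member's own reads for Psme2b alone, through Psme2. Gm3375 of Psmb5, AC110212.1 of Psmc1, Gm4742 of Psma3 and AC114990.1 of Psmb3 had no counts, so what they hold is not known. Among the copies of Psma3, which had 3906 control and 3569 senescent reads itself, Gm609 had 261 and 21. Exons of 15 members overlap those of another gene, and without strand their reads cannot be told apart.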

How the data were processed

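RNAseq was measured in control and senescent AML12 cells, with 1 library per condition from RNA of 3 pooled samples, poly(A) selection and random-primed cDNA. The authors deposited un-normalized counts of reads per gene, by Ensembl identifier. The submitters' processing notes name CASAVA, STAR, DESeq2, edgeR and mm10, without roles or versions. The counting tool, its annotation and its use of strand are not given in the sources used here. The initials of the titles (O and Y) assigned the columns, and 0 columns of sample values were left unused.

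Of 35275 genes, 34490 (97.8%) were paired with a symbol of GENCODE M21, which also gave positions and exon lengths. Counts were scaled by TMM in edgeR 4.0.16 (R 4.3.3), and for alternatives by DESeq2 1.42.0 size factors, upper quartiles and total counts. Log2 ratios and intervals were computed in Python 3.11.15 (numpy 2.4.6, pandas 2.3.3, scipy 1.17.1), trends in statsmodels 0.14.6 with a lowess span of 0.2 over genes with at least 100 reads, copies by blastn 2.17.0 and figures by matplotlib 3.10.9. The code was tested on simulated data. With 1 library per group the quasi-likelihood test of edgeR and the test of DESeq2 cannot be applied, so the text holds no p-values. Sequences are from RefSeq. Every member could be named, as could the genes of the lists around the proteasome, the marker genes and the chromosome 17 neighbours, and some genes of these lists are not reported here. The members and lists were chosen with earlier results of these data known, and so support nothing about their direction.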

Additional observations from a re-analysis of the deposited data

How the results depend on the processing

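The medians of the subunit classes and their differences kept their sign under the other scalings, prior counts and filters. For the differences, a scaling could not have changed it, apart from the prior count. The 20S core median turned from -0.03 to 0.00 (0.0022) with the exon-length trend subtracted, a choice made after seeing the data, and the median of all 48 members from 0.01 to -0.10 under total-count scaling. Total-count scaling moved the medians to -0.13 for 20S alpha, -0.14 for 20S constitutive beta, 0.080 for 19S ATPase, 0.10 for 19S non-ATPase and -0.75 for activators, a move of about the shift of -0.11 in the median of all genes. The count of members called lower was 10 under each of the 3 other scalings, 4 at a threshold of 1, and 3 with intervals widened for an assumed coefficient of variation of 0.4. At a threshold of 0.3, 6 members were higher and 13 lower. Without Psme2b, a choice made after seeing the data, the activator median was -0.12 and its difference from the 20S core -0.093. The other 156 recomputed class medians, differences and counts stayed within their limit, set by the counting interval for values and at 1.5 times for counts. Many of them could not move. A filter of 1 read and the removal of Psmc3ip leave every class and call as it was, and scaling hardly enters a difference. The number 156 is therefore no measure of stability. Of the log2 ratios of single members, 38 moved past their counting interval under total-count scaling and 1 under upper-quartile scaling, and the 5 of small size named above changed sign under the former. With the length of the longest transcript 6 of 10 shares of a pair's level moved past their interval, namely those of Psmb8 in both libraries, of Psmb9 and Psmb10 in control, and of Psme2 beside Psme3, from 63.7% to 74.4% in control and from 41.6% to 54.1% in senescent cells. All 12 class shares of reads rose when mitochondrially encoded genes were left out of the total, 10 of them past their interval. At a filter of 100 reads Psmb8, with 98 reads, drops out, and its difference from Psmb5 has no value. No paired analysis was possible because each condition is 1 library, and for the same reason no replicate could be left out. Depth limits Psmb8 and Psmb9, which rest on 16 and 14 senescent reads.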
